A study of Mus with 4 samples.

Results

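The serum amyloid A (SAA) genes Saa1, Saa2, Saa3 and Saa4 were examined in RNA sequencing of LSECs, the liver sinusoidal endothelial cells, whose pores let plasma pass from the blood channels of the liver to the hepatocytes. They are 4 of the 54532 gene identifiers in the deposited count table, and 4 of 4 passed the filter on low counts that 15510 identifiers passed. They are ENSMUSG00000074115 (Saa1), ENSMUSG00000057465 (Saa2), ENSMUSG00000040026 (Saa3) and ENSMUSG00000040017 (Saa4). The family was chosen by its values in these same libraries, because Saa2 was over 50-fold higher in knockout cells and unequal between the knockout libraries. All values for P1KO against CTL and for 1 knockout library against the other are therefore a description, with no test.

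Of the libraries, 2 were prepared from P1KO mice, in which Pofut1 was deleted, in the endothelium according to the title of the series. The other 2 were prepared from CTL mice, whose genotype is not described further. All mice had received carbon tetrachloride (CCl4), a toxin that injures hepatocytes, so no group without injury enters the comparison. POFUT1 is a fucosyltransferase that modifies EGF-like repeats, including those of the Notch receptors. The labels used here give no Cre driver, strain, sex, age, CCl4 dose or time, and do not say how many mice stand behind a library. They name LSECs as the cell type, while the extraction text names ventricles of the heart as the RNA source. The table's identifiers come without symbols, so markers of LSECs, of other liver cells and of heart muscle, and Pofut1 itself, are not analysed here. The part of other cell types in the values below was not tested.

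SAA proteins are small lipid-binding proteins that travel in blood on high-density lipoprotein. In mouse, Saa1 and Saa2 encode the acute phase SAAs, which hepatocytes secrete in large amounts after injury or infection, when interleukin-6, interleukin-1 and tumour necrosis factor act through STAT3, NF-kB and C/EBP factors. Saa3 is known in mouse for inducible expression outside hepatocytes, among others in macrophages and fat, and Saa4 encodes the constitutive SAA, which responds little to inflammation. Deposits of fragments of acute phase SAA in tissues cause AA amyloidosis.

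The 4 libraries were of nearly equal depth, from 17464769 to 17918834 counts. The libraries of a group were not equally close. The biological coefficient of variation over all tested genes was 12.1% in the P1KO pair and 3.23% in the CTL pair. The column of the second knockout library is headed KO3, a number that is in no sample title, and it was placed by its letters in the P1KO group. Across all tested genes, edgeR's quasi-likelihood test called 1501 genes higher (9.68%) and 1526 lower (9.84%) in P1KO at a Benjamini-Hochberg adjusted p below 0.05. Without CTL1 these counts were 58 and 71, without CTL2 54 and 66, without KO1 2675 and 2716, and without KO3 2630 and 2578.

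The family did not move as a block. Saa1 and Saa2, which were scarce in CTL cells, were far higher in P1KO cells. Saa4 was higher by a smaller factor, and Saa3, to which nearly all SAA reads of CTL cells belonged, was lower in P1KO cells. For Saa1, Saa2 and Saa4 both P1KO libraries lay above both CTL libraries, as they did for 30.5% of all tested genes. For Saa3 both lay below, as they did for 32.1% of all tested genes. Levels are given in CPM, a gene's counts relative to all counts of the library, scaled by the trimmed mean of M-values (TMM). Folds with a 95% interval come from the reads summed over a group, and the intervals, exact binomial ones, cover counting error only. In whole preparations a difference in level cannot be told apart from a difference in the number of cells that carry the transcript.

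Saa2 had 1346 reads in KO1 and 3071 reads in KO3, against 46 in CTL1 and 35 in CTL2. Its level was 76.5 CPM in KO1 and 173 CPM in KO3, against 2.62 CPM in CTL1 and 1.96 CPM in CTL2. Both knockout libraries were high, KO3 more so, and both control libraries had fewer than 50 reads. The mean was 125 ± 67.9 CPM in P1KO and 2.29 ± 0.467 CPM in CTL (SD, n = 2 each), and the fitted log2 fold change was 5.76. By summed reads the P1KO level was 54.6-fold that of CTL (95% interval 43.8 to 68.8). The 4 possible pairs of a knockout and a control library gave folds from 29.2 to 88.0, a range wider than this interval. That range mixes the spread between libraries with the counting error of single control libraries. By fitted fold change Saa2 ranked 3 among the 15510 tested genes. By the ratio of mean CPM, 3 genes were at or above 50-fold, of which Saa2 was the smallest at 54.4, and the next gene below stood at 38.3. The family was chosen because Saa2 passed 50-fold, so its high place among the tested genes follows from the choice.

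Saa1, the other acute phase gene, had 1252 reads in KO1 and 2761 in KO3, against 116 in CTL1 and 97 in CTL2. Its level was 71.1 CPM in KO1 and 155 CPM in KO3, against 6.61 CPM in CTL1 and 5.43 CPM in CTL2. The order of the libraries was that of Saa2, with KO3 highest and CTL2 lowest, though the order of CTL1 and CTL2 lay within counting error for both genes. The mean was 113 ± 59.4 CPM in P1KO and 6.02 ± 0.831 CPM in CTL (SD, n = 2 each). The fitted log2 fold change, 4.23, ranked 8 among the tested genes. The summed reads put P1KO 18.9-fold above CTL (95% interval 16.4 to 21.7), and the single pairs of libraries gave folds from 10.8 to 28.6.

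Saa3 ran the other way. It had 3834 reads in KO1 and 3244 in KO3, against 9044 in CTL1 and 8959 in CTL2. Its level was 218 CPM in KO1 and 182 CPM in KO3, against 515 CPM in CTL1 and 502 CPM in CTL2. The control libraries were alike and high, and both knockout libraries were lower. The mean was 200.04 ± 25.2 CPM in P1KO and 508 ± 9.53 CPM in CTL (SD, n = 2 each), and the fitted log2 fold change was -1.35. The level in P1KO was 0.393 of that in CTL (95% interval 0.383 to 0.404), and the single pairs of libraries gave 0.354 to 0.434. Among the tested genes, 345 (2.22%) had a lower fitted fold change.

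Saa4, the constitutive member, had 165 reads in KO1 and 268 in KO3, against 107 in CTL1 and 114 in CTL2. Its level was 9.38 CPM in KO1 and 15.1 CPM in KO3, against 6.09 CPM in CTL1 and 6.38 CPM in CTL2. As for 30.5% of all tested genes, both P1KO libraries lay above both CTL libraries, but KO1 stood closer to the controls than to KO3. The mean was 12.2 ± 4.02 CPM in P1KO and 6.24 ± 0.204 CPM in CTL (SD, n = 2 each), and the fitted log2 fold change was 0.97. The summed reads put P1KO 1.96-fold above CTL (95% interval 1.66 to 2.32). KO1 alone was 1.503-fold and KO3 alone 2.41-fold above the CTL mean.

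**Figure D1:**
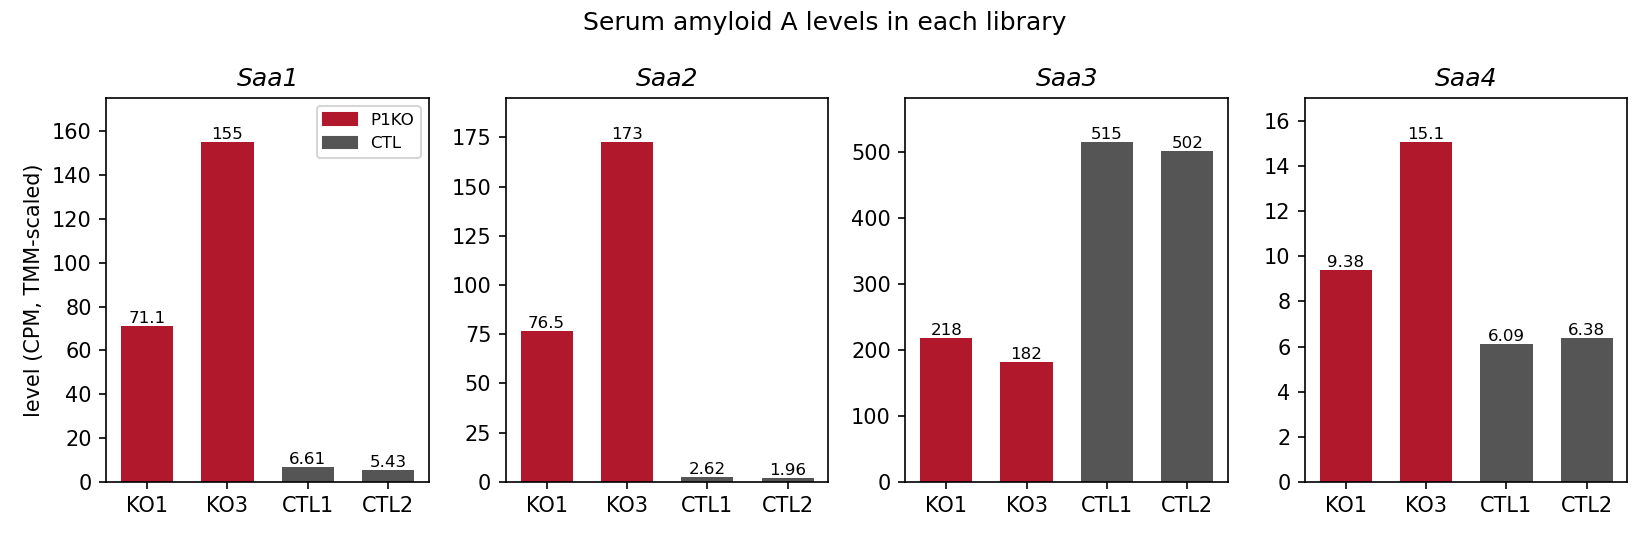
Level of Saa1, Saa2, Saa3 and Saa4 in each library, in TMM-scaled CPM on a linear axis from 0, 1 bar a library, with P1KO in red and CTL in grey. Saa1 and Saa2 reach 155 and 173 CPM in KO3 and stay at or below 6.61 CPM in the CTL libraries, whereas Saa3 lies between 182 and 218 CPM in P1KO and between 502 and 515 CPM in CTL.

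The knockout libraries differed from each other in step for Saa1 and Saa2. The level in KO3 was 2.26-fold that in KO1 for Saa2, with a 95% interval of 2.12 to 2.41, and 2.18-fold for Saa1, with an interval of 2.04 to 2.33. For Saa4 it was 1.61-fold, with an interval of 1.32 to 1.96. For Saa3 it was 0.837-fold, with an interval of 0.798 to 0.877. These intervals compare 2 libraries, not conditions. The controls were closer by their point values: CTL2 stood at 0.748 of CTL1 for Saa2 (0.468 to 1.19), 0.822 for Saa1 (0.621 to 1.09), 0.974 for Saa3 (0.946 to 1.003) and 1.05 for Saa4 (0.797 to 1.38), and all these intervals include equal levels. For Saa4 the control interval overlaps that of the knockout pair, and for Saa2 it is wide, from 46 and 35 reads. The family was chosen for the unequal knockout libraries of Saa2, so whether the controls were closer was not tested for any member.

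Set against other genes, the gap between KO3 and KO1 was wide for 3 members. Among the 9478 genes with a mean of at least 10 CPM, the median absolute gap between KO3 and KO1 was 0.10 on the log2 scale. The gap was 1.17 for Saa2, 1.12 for Saa1, 0.68 for Saa4 and -0.26 for Saa3. A larger absolute gap was seen for 58 of these genes (0.612%) in the case of Saa2 and for 64 (0.675%) in the case of Saa1. As the family was chosen for the unequal knockout libraries of Saa2, these percentages are no separate result. Saa2 and Saa1 reached a mean of 10 CPM only through P1KO, as their CTL means were 2.29 and 6.02 CPM. For Saa4, whose own mean lies just under 10 CPM, 206 genes (2.17%) had a larger gap, and for Saa3 1333 (14.1%) did. KO3 was thus the library further from CTL for all 4 members, upward for Saa1, Saa2 and Saa4 and downward for Saa3.

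**Figure D2:**
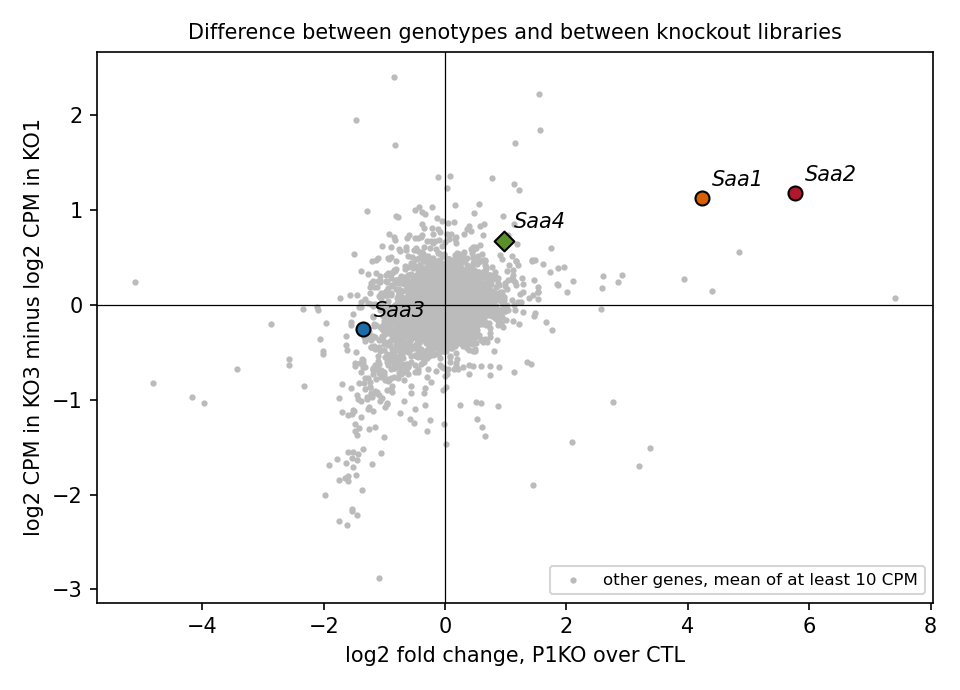
Log2 fold change of P1KO over CTL (horizontal) against log2 CPM in KO3 minus log2 CPM in KO1 (vertical), with 1 grey point for each gene with a mean of at least 10 CPM. Saa1 and Saa2 lie far to the right and above 1, Saa4 (a diamond, as its mean is under 10 CPM) lies to the upper right of the centre, and Saa3 lies to the lower left at -1.35 and -0.26.

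The make-up of the SAA reads differed more than their sum. Saa3 took 58.1% of all SAA reads in KO1 (95% Wilson interval 56.9% to 59.3%) and 34.7% in KO3 (33.8% to 35.7%), against 97.1% in CTL1 (96.8% to 97.4%) and 97.3% in CTL2 (97.0% to 97.6%). Saa2 took 20.4% in KO1 (19.4% to 21.4%) and 32.9% in KO3 (31.9% to 33.8%), against 0.494% in CTL1 (0.371% to 0.658%) and 0.380% in CTL2 (0.274% to 0.528%). Saa1 took 19.0% in KO1 (18.1% to 19.9%) and 29.5% in KO3 (28.6% to 30.5%), against 1.25% in CTL1 and 1.05% in CTL2. The share of Saa4 was 2.50% in KO1 and 2.87% in KO3, against 1.15% in CTL1 and 1.24% in CTL2. These are shares of reads, not corrected for transcript length, so they compare libraries and do not rank the members as molecules.

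The 4 genes together had 6597 reads in KO1 and 9344 in KO3, against 9313 in CTL1 and 9205 in CTL2. In CPM the sum was 375 in KO1 and 525 in KO3, against 530 in CTL1 and 515 in CTL2, so that KO3 lay between the controls and KO1 below them. The mean of the sum was 449.9 ± 106 CPM in P1KO and 523 ± 10.6 CPM in CTL (SD, n = 2 each), a difference smaller than the SD of the P1KO pair. The difference in mean level, P1KO minus CTL, was -308 CPM for Saa3 and 235 CPM for Saa1, Saa2 and Saa4 together.

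**Figure D3:**
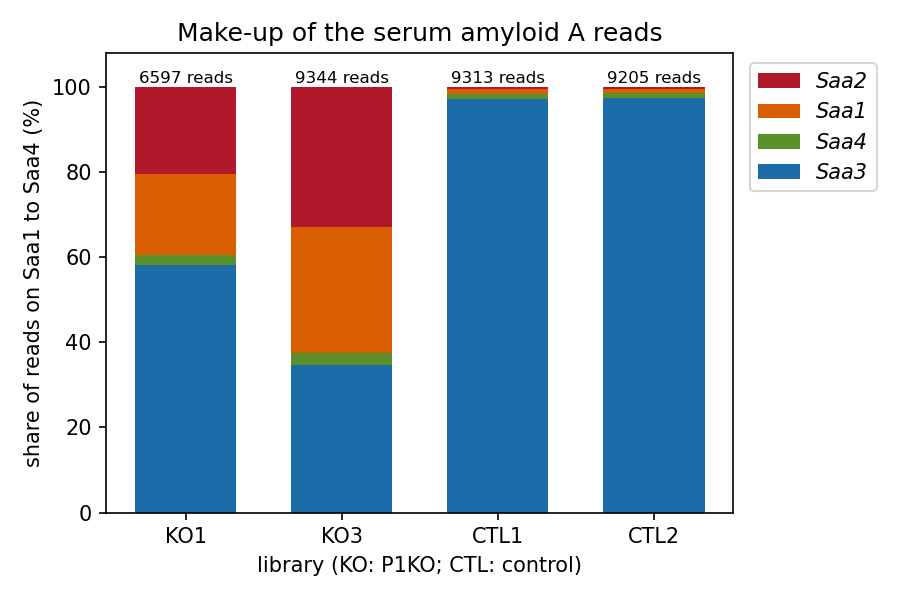
Share of each gene in the reads counted for Saa1 to Saa4, in percent of the library's SAA reads, as 1 stacked bar a library with P1KO on the left and CTL on the right, and the number of reads above each bar. Saa3 fills 97.1% and 97.3% of the CTL bars, against 58.1% of the KO1 bar and 34.7% of the KO3 bar, where Saa1 and Saa2 take most of the rest.

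The unequal folds of Saa1 and Saa2 can also be put as a ratio of their reads, which restates the values the family was chosen by and is no separate result. For each read of Saa2 there were 0.930 reads of Saa1 in KO1 (95% interval 0.861 to 1.005) and 0.899 in KO3 (0.854 to 0.947), against 2.52 in CTL1 (1.78 to 3.63) and 2.77 in CTL2 (1.87 to 4.20), with exact binomial intervals for counting error. The ratio was nearly the same in KO1 and KO3, whose levels of both genes differed over 2-fold. The intervals do not hold the variation between animals or preparations, and the difference between the genotypes was not tested. Saa1 and Saa2 are close paralogs, and how reads that match both were counted is not given in the sources used here, so the division of reads between them is uncertain. Summed into 1 gene, a choice made after seeing the data, they had a level of 148 CPM in KO1 and 328 CPM in KO3, against 9.23 CPM in CTL1 and 7.39 CPM in CTL2, with a fitted log2 fold change of 4.85.

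The genes lie together on chromosome 7 (GRCm38.p6 in RefSeq, the assembly also called mm10), where 4 of 4 symbols were found, within 42316 bases from 46711998 to 46754313. Saa3, the gene that was lower in P1KO, spans 46711998 to 46719615 at 1 end of the cluster, and Saa4 spans 46727992 to 46732603. The pseudogene Saa-ps (46734688 to 46735583) separates Saa4 from Saa1, which spans 46740497 to 46743181. Saa2, the gene with the largest fold change of the family, spans 46751833 to 46754313 at the opposite end. Between Saa1 and Saa2 lie 8651 bases. Placed by symbol, the log2 fold changes from Saa3 to Saa2 along the chromosome were -1.35, 0.97, 4.23 and 5.76. RefSeq lists Saa2 among the older names of Saa1 and Saa1 among those of Saa2, and the coordinates were joined to the count rows by symbol alone. The identifiers therefore fix the rows and their values, but which of the Saa1 and Saa2 positions belongs to which row rests on these exchanged symbols. The noncoding gene Gm31882 (46718894 to 46721322) overlaps the span of Saa3 by 722 bases, and as the strand setting of the counting is not given, reads from that stretch cannot be assigned to either gene with certainty.

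**Figure D4:**
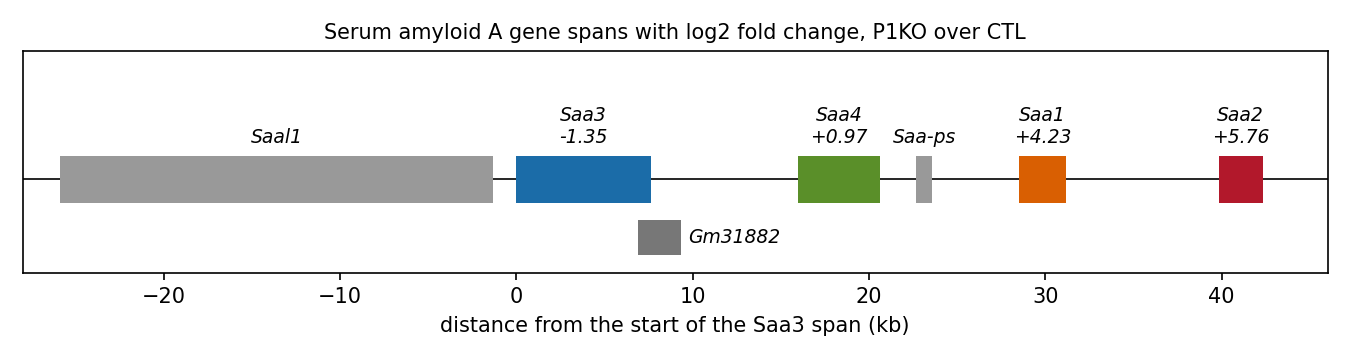
Map of the SAA gene cluster to scale, in kb from the start of the Saa3 span, with gene spans as boxes and the log2 fold change of P1KO over CTL above each SAA gene. The value is -1.35 for Saa3 at the left and 5.76 for Saa2 at the right, with values placed by symbol, so that those of Saa1 and Saa2 rest on symbols RefSeq also lists for the other gene; Gm31882, drawn below the line, overlaps Saa3, and Saal1 and Saa-ps, in grey, have no value here.

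Other genes with similar patterns were sought by the Euclidean distance between log2 CPM over the 4 libraries, each gene centred on its CTL mean, where 0 is an identical pattern. Nearest to Saa2, at 1.34, was ENSMUSG00000056476, with 22.4 CPM in KO1 and 33.1 CPM in KO3, against 1.37 CPM in CTL1 and 0.560 CPM in CTL2. Saa1 was the third nearest at 2.11, while Saa4 and Saa3 stood at 6.63 and 9.88. The distance is the same in both directions, but Saa2 ranked 18 among the genes nearest to Saa1. The fitted log2 fold change was 5.76 for Saa2 and 4.23 for Saa1. The gaps between KO3 and KO1 on the log2 scale, 1.17 for Saa2 and 1.12 for Saa1, were close. Nearest to Saa1, at 0.738, was ENSMUSG00000062006, with 140.2 CPM in KO1 and 169 CPM in KO3, against 9.45 CPM in CTL1 and 10.7 CPM in CTL2. Neither of these genes showed as wide a gap between KO1 and KO3 as Saa1 and Saa2 did.

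Saa3 and Saa4 had closer companions by this measure. The distance depends on the size of the fold change, and few genes had fold changes as large as those of Saa1 and Saa2. Nearest to Saa3, at 0.065, was ENSMUSG00000086320, with 16.5 CPM in KO1 and 13.4 CPM in KO3, against 40.0 CPM in CTL1 and 38.5 CPM in CTL2. ENSMUSG00000025648 followed at 0.10, with 11.1 CPM in KO1 and 8.48 CPM in KO3, against 24.3 CPM in CTL1 and 24.6 CPM in CTL2. The 4 genes nearest to Saa4 stood at distances of 0.092 to 0.14 and had log2 fold changes of 0.91 to 1.04. The deposited table and the gene table used here do not pair these identifiers with symbols.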

How the data were processed

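Per the labels, TRIzol was used to extract the RNA and a NEBNext Ultra kit to prepare the libraries. Raw read counts were deposited in 1 table for 54532 Ensembl gene identifiers in 4 columns, and 0 columns were left out. The submitters' processing notes name the build mm10 and, as tools, featureCounts 1.5.0-p3, HISAT2 2.0.5, fastp and CASAVA. Not given in the sources used here are the annotation release, the strand setting and the handling of reads that match several genes. The labels do not tell whether replicate libraries stem from different animals, so p-values reflect only how these libraries varied, possibly for technical reasons.

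The SAA members and the gene lists were chosen with earlier results of these data known. The identifier and symbol of each SAA gene were given with that choice. The RefSeq gene table (GRCm38.p6, 49997 genes) matched 0 of the 54532 identifiers, so the lists of cytokines, receptors, acute phase proteins and cell type markers, and Pofut1, were not analysed here. The genes to be named were the SAA genes and the 4 nearest in pattern to each, with at most 2 identifiers without a symbol printed in each direction.

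The counts were fitted over all genes with edgeR 4.0.16 in R 4.3.3 (filterByExpr, TMM, quasi-likelihood test, P1KO against CTL, no covariate). Levels are CPM, and log2 values used a prior count of 2. Folds from summed reads and read ratios carry exact binomial intervals, and shares Wilson intervals. Reads carry no molecular identifiers, so intervals cover counting error only. The edgeR fit was tested on simulated counts with the same variation in both groups, unlike these data. That test did not cover the intervals, shares or distances. Alternatives were DESeq2 size factors, library totals, other filters on low counts, DESeq2 1.42.0, each library left out in turn and, chosen after seeing the data, Saa1 and Saa2 summed.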

Additional observations from a re-analysis of the deposited data

How the results depend on the processing

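Each SAA gene kept the direction of its fold change with DESeq2 size factors, with library totals, with no filter on low counts and with each library left out in turn. The first 3 of these alternatives moved no fold change by more than the spread between libraries. Over all tested genes, both P1KO libraries lay above both CTL libraries for 30.5% and below both for 32.1%. The groups likewise did not overlap for any of the 4 genes, so leaving out a library could not reverse a direction. The kept directions are therefore no separate support. Leaving out 1 library gave log2 fold changes of 3.56 to 4.69 for Saa1, 5.06 to 6.23 for Saa2, -1.48 to -1.22 for Saa3 and 0.59 to 1.27 for Saa4. The lowest values for Saa1, Saa2 and Saa4 were those without KO3, and the lowest for Saa3 that without KO1. With Saa1 and Saa2 summed, the value was 4.85. Over all genes, 810 were called higher and 823 lower with no filter on low counts, and leaving out 1 library gave 54 to 2675 higher and 66 to 2716 lower, a lone library being taken to vary like the other group. DESeq2 called 1158 higher and 1099 lower.

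No paired analysis was possible because KO3 carries a number that matches no control. Calls per gene list and shares per length were not run, for lack of symbols and transcript lengths. With 2 libraries a group the spread is poorly known, and counts of 35 and 46 reads limit the precision of the control level of Saa2.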
